A study of Mus musculus with 7 samples.

Results

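The 10 genes described here encode antiviral effectors that interferon induces: Ifit1, Ifit2, Ifit3, Isg15, Isg20, Rsad2, Mx1, Mx2, Usp18 and Cmpk2. The genes were picked with earlier results of these arrays known, and each was read from the probe set whose annotation gives only that gene symbol. Had a gene had several such probe sets, the rule would have kept the brightest over the 7 arrays. Each gene had 1, so no probe set was chosen by its level. The 10 genes stood among 30176 genes with a probe set of a single symbol and 65956 probe sets tested. The arrays held RNA of wound macrophages from mice, cells that enter a wound from the blood, clear it and direct its repair. The cells came from polyvinyl alcohol sponges placed under the skin of the back, were collected 3 days (d3, 3 arrays, replicates 1, 3 and 4) or 7 days (d7, 4 arrays, replicates 5, 6, 7 and 8) later, were isolated on magnetic beads by CD11b and were sorted for F4/80. No gene deletion or drug set the days apart, and all groups carried the sponge. The methods state mice of both sexes at 8 to 10 weeks of age for the study in general, and the strain behind these arrays is not given in the sources used here.

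Type I interferons bind a receptor of Ifnar1 and Ifnar2, which activates Jak kinases and brings a complex with Stat2 and Irf9 to a short repeat in the promoters of responsive genes, the interferon-stimulated response element. The genes it switches on act against viruses at many steps: they bind foreign RNA, deplete or alter nucleotides, degrade RNA, trap nucleocapsids and tag proteins. Macrophages keep a low tonic level of these genes and raise it after sensing nucleic acids, those of dead cells included.

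The promoters of 7 of the 10 genes, each covering 250 bases before to 50 bases after a gene start, were in the RefSeq promoter table for GRCm38.p6. They were searched for the core of the response element, taken as GAAA, any 2 bases and GAAA, on both strands. Ifit1, Ifit3, Isg15 and Rsad2 held it, and Ifit2, Isg20 and Cmpk2 did not. Over all 32851 promoters of the table, 3.44% held at least 1 match and 0.225% held at least 2. Counted by gene, 3.99% of the 27025 genes with a promoter had a match in at least 1 promoter. The promoters with a match are printed 5′ to 3′ on the strand of the gene with the matches in capitals, because they show how the element is laid out in these genes, and that of Cmpk2, which passed the test between days, is printed as a promoter without these letters. They lie at chr4:156200769-156201068 (minus strand) for Isg15, chr19:34640639-34640938 (plus) for Ifit1, chr19:34583279-34583578 (plus) for Ifit3, chr12:26456403-26456702 (minus) for Rsad2 and chr12:26468965-26469264 (plus) for Cmpk2.
Isg15: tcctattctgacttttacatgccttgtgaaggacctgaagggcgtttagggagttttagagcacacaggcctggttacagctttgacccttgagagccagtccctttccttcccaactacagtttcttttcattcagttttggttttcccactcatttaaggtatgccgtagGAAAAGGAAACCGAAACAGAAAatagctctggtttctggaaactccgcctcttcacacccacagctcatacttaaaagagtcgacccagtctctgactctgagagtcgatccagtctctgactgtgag
Ifit1: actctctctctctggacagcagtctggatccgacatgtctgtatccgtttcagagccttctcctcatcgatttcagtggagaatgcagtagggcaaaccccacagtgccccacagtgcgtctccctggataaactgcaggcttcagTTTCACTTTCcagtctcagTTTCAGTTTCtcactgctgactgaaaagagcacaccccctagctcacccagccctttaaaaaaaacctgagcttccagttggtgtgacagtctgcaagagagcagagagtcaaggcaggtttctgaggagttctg
Ifit3: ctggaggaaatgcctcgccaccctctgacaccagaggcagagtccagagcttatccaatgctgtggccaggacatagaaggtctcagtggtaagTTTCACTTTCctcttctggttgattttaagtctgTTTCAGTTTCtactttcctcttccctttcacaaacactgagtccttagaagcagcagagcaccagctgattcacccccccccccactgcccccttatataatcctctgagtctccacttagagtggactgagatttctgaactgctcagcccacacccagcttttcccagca
Rsad2: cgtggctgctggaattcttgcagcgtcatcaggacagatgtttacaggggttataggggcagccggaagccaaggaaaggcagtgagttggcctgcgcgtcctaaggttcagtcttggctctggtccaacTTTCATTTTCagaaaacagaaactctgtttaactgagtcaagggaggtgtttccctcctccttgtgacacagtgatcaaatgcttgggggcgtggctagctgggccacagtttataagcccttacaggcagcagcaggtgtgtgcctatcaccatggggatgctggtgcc
Cmpk2: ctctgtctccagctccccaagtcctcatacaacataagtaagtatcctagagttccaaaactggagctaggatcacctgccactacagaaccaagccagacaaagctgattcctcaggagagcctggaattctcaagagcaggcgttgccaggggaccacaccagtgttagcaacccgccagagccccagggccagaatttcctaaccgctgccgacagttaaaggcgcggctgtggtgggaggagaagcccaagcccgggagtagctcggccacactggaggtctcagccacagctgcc

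In Isg15, 3 overlapping matches formed 1 block on the strand of the gene, from 78 to 57 bases before its start. Ifit1 and Ifit3 each had 2 matches on the opposite strand, at 104 to 95 and 85 to 76 bases before the start in Ifit1 and at 156 to 147 and 122 to 113 in Ifit3. The single match of Rsad2, also on the opposite strand, lay 120 to 111 bases before its start. Ifit3b, a close copy of Ifit3, had 2 matches as well, and an identical stretch of 169 bases was shared by the Ifit3 and Ifit3b promoters. Ifit1bl1, a close copy of Ifit1, had 1 match on the opposite strand in each of its 2 promoters, from 104 and from 23 bases before the start. The promoters of Ifit1 and of its neighbour Ifit1bl2, which is read the other way, overlapped by 245 bases, so their matches are the same letters, and a second promoter of Ifit1bl2 had 0 matches. A match describes letters only, and its absence says only that these letters are not in the window.

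**Figure D1:**
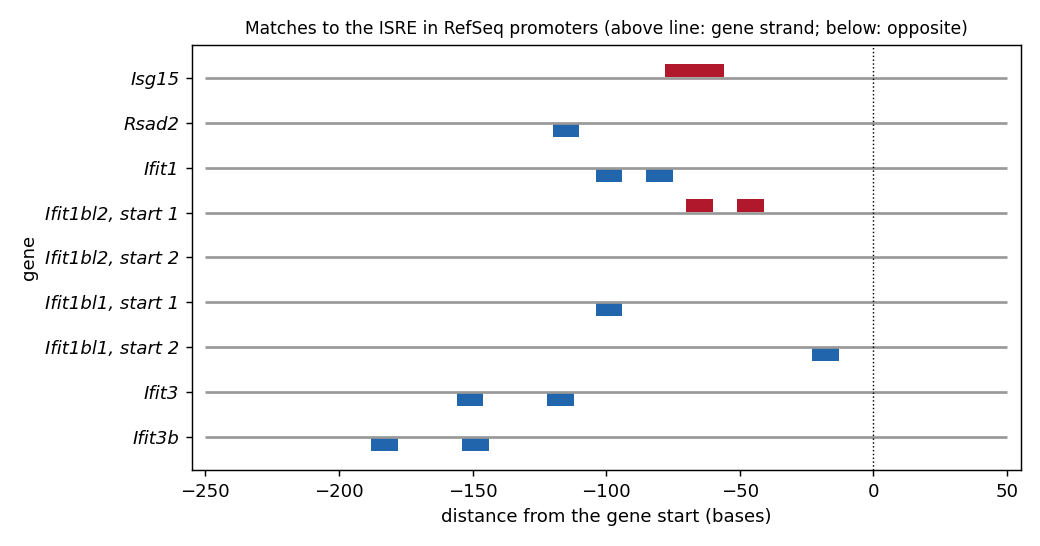
Matches to the core of the interferon-stimulated response element in the RefSeq promoters of Isg15, Rsad2, Ifit1 and Ifit3 and of the close copies Ifit1bl2, Ifit1bl1 and Ifit3b, with 1 line for each promoter, by distance from the gene start in bases; boxes above a line lie on the strand of the gene and boxes below it on the opposite strand. All matches drawn lie before the gene start, and those of Isg15 form 1 block from 78 to 57 bases before it.

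Values are levels on the log2 scale as deposited. The array background was 5.39, the highest value on any array of 23 control probe sets that match no mouse sequence. Of the probe sets tested, 70.0% had a mean at or under it. All 10 genes were well above it: their lowest value on any array was 6.69 (Isg20) and their highest 13.80 (Rsad2). The 7 array medians over all probe sets ranged from 4.14 to 4.22. The median of the positive controls was 9.78 on d3 replicate 3 and 10.01 to 10.09 on the other 6 arrays. Levels are compared within a gene only, since probe sets differ in brightness.

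Between d3 and d7 all 10 genes had a lower mean on d7, with a median difference of -1.28 on the log2 scale, that is, 2.42-fold higher on d3. Cmpk2 and Usp18 fell on d7 at an adjusted p under 0.05 (limma, Benjamini-Hochberg over the 65956 probe sets), and the other 8 did not pass. Of all probe sets tested, 0.117% passed in either direction and 0.0531% passed with a lower level on d7. All 10 had an unadjusted p under 0.05 and a lower level on d7, as did 4.34% of all probe sets tested. An unadjusted p under 0.05 in either direction was found in 7.66% of all probe sets, the share against which the counts of unadjusted p in the gene lists are read. A lower mean on d7 was found in 35505 of the 65956 probe sets and in 9985 of the 19774 above the array background. Counts of lower means in the gene lists are read against these numbers. In 9 of the 10 every d7 array was below every d3 array, against 3.38% of all probe sets tested and 8.03% of those above the array background. The median difference was -0.000921 over all probe sets tested, and 148 of the 19774 probe sets above the background (0.748%) had a difference at or below the median of the 10 genes. Because the genes were picked with results of these arrays in view, their shared direction is a description.

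When the fit was restricted to the 19774 probe sets above the array background, 7 of the 10 fell (Ifit2, Isg20, Rsad2, Mx1, Mx2, Usp18 and Cmpk2), while 1.00% of the probe sets in that fit passed with a lower level on d7. When any 1 array was left out of the fit over all probe sets, 0 of the 10 passed (limma), 9 or 10 had an unadjusted p under 0.05, and 10 of 10 kept the lower mean on d7. In RNA of a bulk sample, fewer cells that express a gene and less of its RNA per cell cannot be told apart. The labels call the arrays biological replicates, and the p-values measure the spread between these arrays only.

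**Figure D2:**
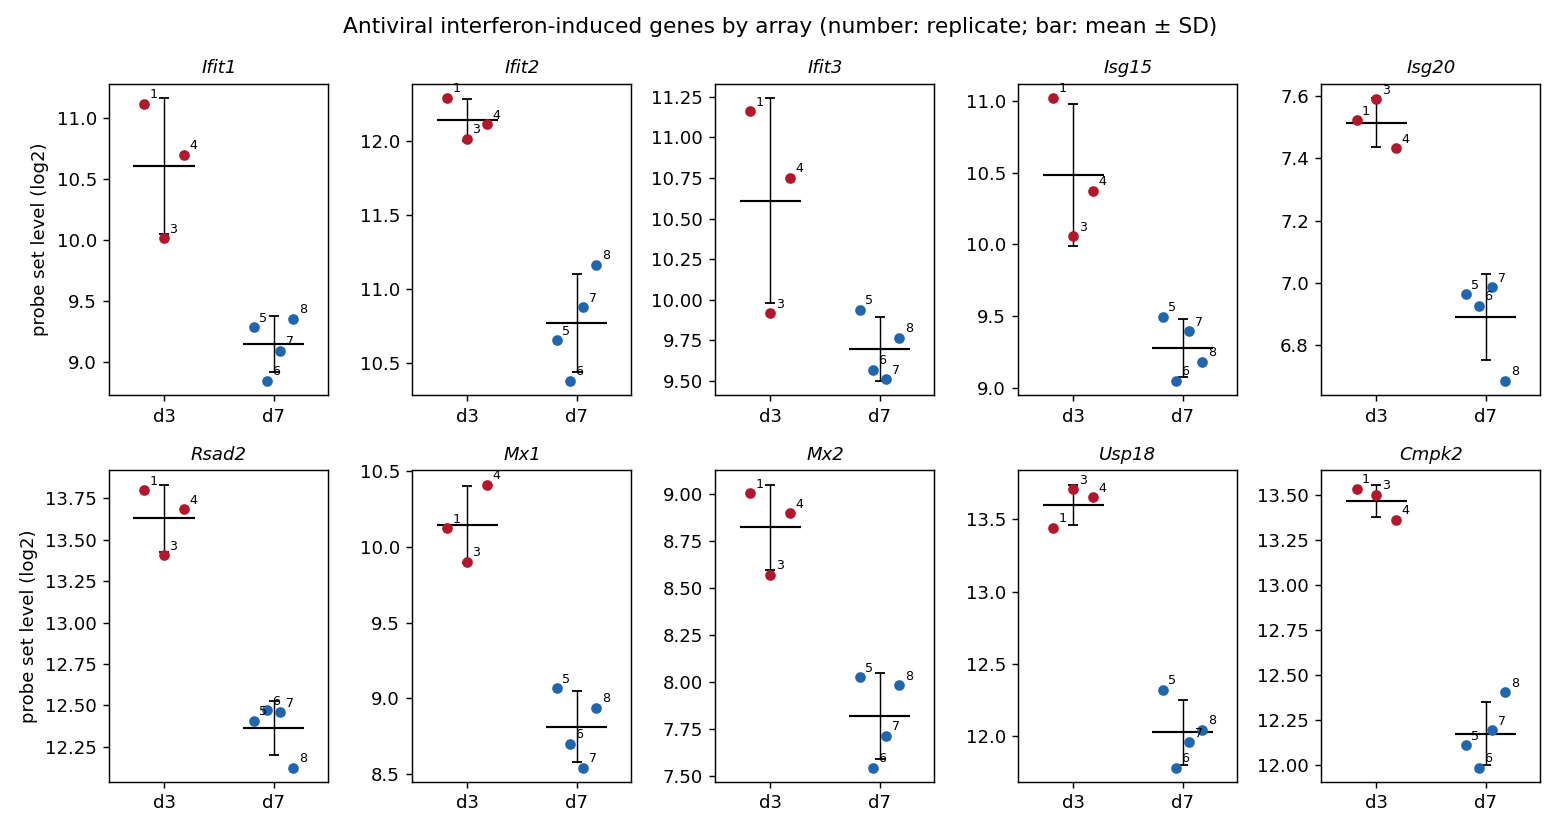
Level of each of the 10 genes on every array (log2, own axis range for each gene, not starting at 0), with the replicate number beside each point and the mean ± SD of the day as a bar (3 arrays on d3 and 4 on d7). In all genes but Ifit3 the lowest d3 array lies above the highest d7 array.

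Cmpk2 and Rsad2 are neighbours on chromosome 12 with 0 annotated genes between them, and both act on nucleotides. Cmpk2 is a mitochondrial kinase that phosphorylates pyrimidine nucleotides. Its level was 13.54, 13.50 and 13.36 on d3 (replicates 1, 3 and 4) and 12.11, 11.99, 12.20 and 12.41 on d7 (replicates 5 to 8). The days stood well apart, with a gap of 0.96 between the lowest d3 and the highest d7 array. Cmpk2 fell by 1.29 on the log2 scale (SE 0.11, 2.45-fold higher on d3, adjusted p = 0.0344, limma), and its adjusted p ran from 0.0645 to 0.176 with 1 array left out. Rsad2 (viperin) turns CTP into a chain-terminating nucleotide that stops viral RNA synthesis. Its level was 13.80, 13.41 and 13.68 on d3 and 12.41, 12.47, 12.46 and 12.13 on d7. Here too the days did not overlap, with d3 replicate 3 the lowest of its day and d7 replicate 8 clearly below the other d7 arrays. The difference of -1.26 (SE 0.13, 2.40-fold) had an adjusted p of 0.0614, just above the threshold, and of 0.0144 in the fit on probe sets above the background.

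Isg15 and Usp18 sit at opposite ends of 1 reaction. Isg15 is a ubiquitin-like protein that is attached to other proteins, and Usp18 removes it and also blocks signalling at Ifnar2, which makes it a brake on the response. The Usp18 level was 13.44, 13.71 and 13.65 on d3 and 12.32, 11.78, 11.95 and 12.04 on d7. Its lowest d3 array was 1.13 above its highest d7 array, and unlike most of the genes it was highest on d3 replicate 3. Usp18 fell by 1.58 on the log2 scale (SE 0.14, 2.99-fold higher on d3, adjusted p = 0.0433, limma), with an adjusted p of 0.0557 to 0.191 when 1 array was left out. The Isg15 level was 11.02, 10.06 and 10.37 on d3 and 9.498, 9.05, 9.40 and 9.18 on d7. Spread over almost 1 log2 unit, its d3 arrays still all lay above the d7 arrays. The Isg15 difference was -1.20 (SE 0.25, 2.30-fold, adjusted p = 0.303).

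The other proteins that attach Isg15 are the activating enzyme Uba7, the conjugating enzyme Ube2l6 and, in mice, the ligase Herc6, with Trim25 as a further ligase. All 4 had a lower mean on d7 and 0 passed the test (limma), while 3 had an unadjusted p under 0.05, also by the t-test of the methods. Ube2l6 was at 10.14, 10.31 and 10.26 on d3 and at 9.41, 9.33, 9.62 and 9.43 on d7, a difference of -0.79 (adjusted p = 0.0614). Herc6 differed by -0.84 (adjusted p = 0.124) and Uba7 by -0.42 (adjusted p = 0.176), with no overlap of the days in either gene. These 3 fell in the fit on probe sets above the background, against 1.00% of the probe sets in that fit. Trim25, in contrast, was level between the days, with a difference of -0.05 (adjusted p = 0.662).

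The Ifit proteins bind foreign or AU-rich RNA and block its translation, and human IFIT3 stabilises IFIT1. Ifit1, Ifit2 and Ifit3 lie in 1 cluster on chromosome 19, where Ifit2 and Ifit3 have 0 annotated genes between them and Ifit3 and Ifit1 have 4 (Ifit1bl1, Ifit3b, Ifit1bl2 and Cnn2-ps). The Ifit1 level was 11.12, 10.01 and 10.70 on d3 and 9.28, 8.84, 9.09 and 9.35 on d7. Days did not overlap, although d3 replicate 3 came within 0.66 of the highest d7 array. The Ifit1 difference was -1.47 (SE 0.28, 2.76-fold, adjusted p = 0.263). Ifit2 was steadier on d3, at 12.29, 12.02 and 12.12, and stood at 10.66, 10.38, 10.88 and 11.17 on d7. Its d7 arrays varied more than its d3 arrays, and its difference was -1.37 (SE 0.20, 2.59-fold, adjusted p = 0.130). Ifit3 was at 11.16, 9.92 and 10.75 on d3 and at 9.94, 9.57, 9.51 and 9.77 on d7. It was the single gene of the 10 whose days overlapped, with d3 replicate 3 below d7 replicate 5 by 0.02. The Ifit3 difference was -0.91 (SE 0.31, 1.88-fold, adjusted p = 0.647), and without d3 replicate 3 it was -1.26 (adjusted p = 0.198).

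Close copies in the cluster can share probes with the Ifit genes, and how the probe sets tell them apart is not given in the sources used here. Ifit1bl1 had the widest difference of these copies, at 10.74, 10.29 and 10.69 on d3 and 8.23, 8.38, 8.60 and 8.96 on d7, with -2.03 and an adjusted p of 0.0629. Ifit3b was at 9.53, 8.27 and 9.09 on d3 and at 7.94, 7.36, 7.76 and 8.02 on d7, a difference of -1.19 (adjusted p = 0.552). Its lowest d3 array was replicate 3, as in Ifit3. Isg20l2, a relative of Isg20, differed by -0.19 (adjusted p = 0.662). The list of copies and relatives held 5 genes: Ifit1bl1, Ifit3b and Ifit1bl2, and outside the Ifit cluster Isg20l2 and Aen. Aen had a mean under the background (5.19). All 5 had a lower mean on d7 and 0 passed (limma), while 3, the Ifit copies, had an unadjusted p under 0.05. In the fit on probe sets above the background 1 copy, Ifit1bl1, fell (adjusted p = 0.0144, limma), against 1.00% of the probe sets in that fit.

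Mx1 and Mx2 are dynamin-like GTPases, Mx1 in the nucleus and Mx2 in the cytoplasm of mouse cells, that trap viral nucleocapsids. They lie on chromosome 16 with Fam3b and Gm9242 between them, and RefSeq lists both as transcribed pseudogenes in the reference strain, in which their reading frames are disrupted. Their RNA was measured nonetheless. The Mx1 level was 10.12, 9.90 and 10.41 on d3 and 9.07, 8.70, 8.54 and 8.94 on d7. A gap of 0.83 separated the days, and the difference was -1.33 (SE 0.17, 2.52-fold, adjusted p = 0.108). The Mx2 level was 9.002, 8.57 and 8.90 on d3 and 8.03, 7.55, 7.71 and 7.98 on d7. Mx2 was separated by 0.54, with a difference of -1.005 (SE 0.16, 2.01-fold, adjusted p = 0.182).

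Isg20, an exonuclease that degrades single-stranded RNA, had the smallest difference of the 10 genes and also the smallest SE. It was at 7.52, 7.59 and 7.43 on d3 and at 6.96, 6.93, 6.99 and 6.69 on d7. All d7 arrays were below the d3 arrays, and d7 replicate 8 lay apart at the low end. The difference was -0.62 (SE 0.085, 1.54-fold, adjusted p = 0.122).

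**Figure D3:**
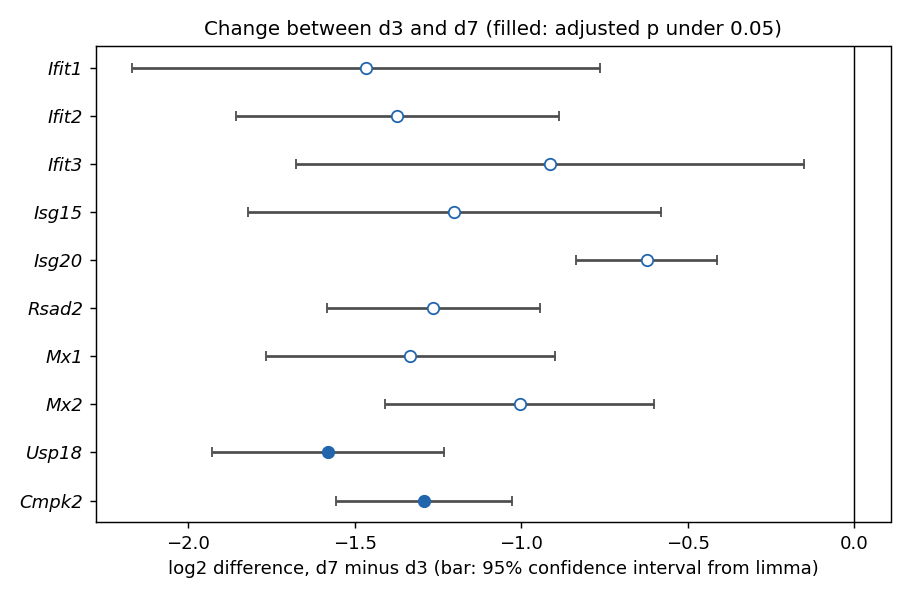
Log2 difference, d7 minus d3, of each of the 10 genes (points) with its 95% confidence interval from limma (bars), filled where the adjusted p over all probe sets was under 0.05. All 10 differences lie below 0, from -1.58 (Usp18) to -0.62 (Isg20), and Ifit3 has the interval that comes closest to 0 (-1.68 to -0.15).

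Within d3 the genes did not vary alike. The SD over the 3 d3 arrays was 0.56 for Ifit1, 0.63 for Ifit3 and 0.49 for Isg15, against 0.079 for Isg20, 0.091 for Cmpk2 and 0.14 for both Ifit2 and Usp18. In the wide ones, replicate 1 was the highest and replicate 3 the lowest array. Over the 10 genes, d3 replicate 3 was the lowest of its day in 7 and the highest in 2 (Isg20 and Usp18), with a mean deviation of -0.23 from the day mean, and d3 replicate 1 was the highest in 7, with a mean deviation of 0.20. The lowest positive controls were those of d3 replicate 3, and their part in its lower values was not tested. On d7, replicate 6 was the lowest in 6 genes (mean deviation -0.17) and replicate 5 the highest in 5 (0.13). Without d3 replicate 3 the median difference of the 10 genes was -1.40, and without d3 replicate 1 it was -1.20.

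**Figure D4:**
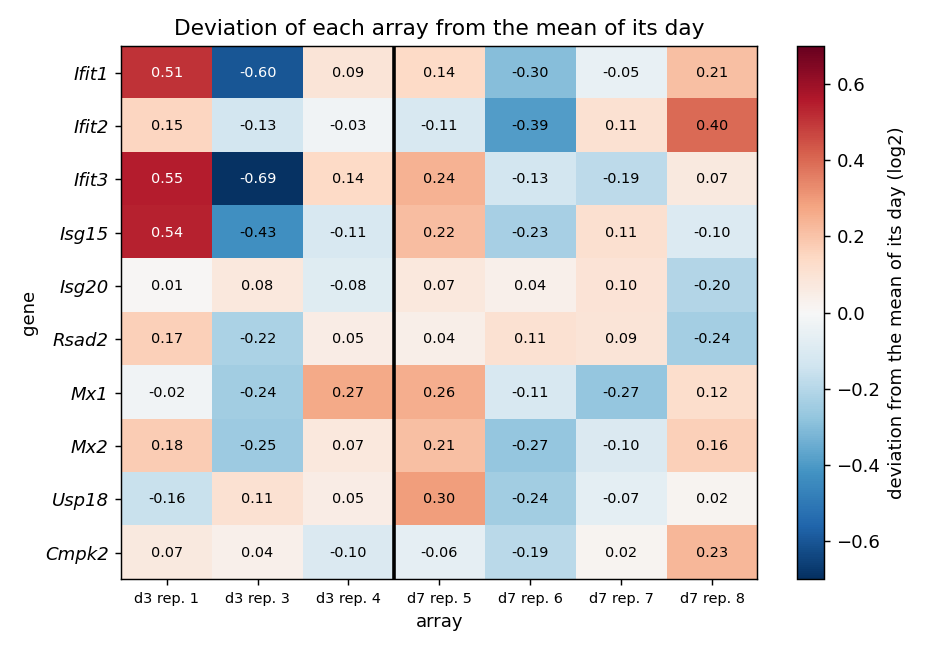
Deviation of each array from the mean of its day (log2) for the 10 genes, in color and as printed values; columns are the 7 arrays and the black line separates d3 from d7. Ifit1, Ifit3 and Isg15 carry the widest deviations, up on d3 replicate 1 and down on d3 replicate 3.

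The interferons themselves were near the limit of the arrays. Of 17 ligand genes measured, 0 had a mean above the array background and 0 passed the test (limma), while 2 had an unadjusted p under 0.05, also by the t-test of the methods. Ifnb1, the interferon beta gene, was at 5.55, 6.38 and 5.57 on d3, all above the background of 5.39, and at 5.13, 4.88, 4.72 and 4.90 on d7, all below it. The Ifnb1 difference was -0.92 (adjusted p = 0.461), and no fold is given because the d7 level was not above background. Ifnb1 was highest on d3 replicate 3, the array on which 7 of the 10 effectors were lowest of their day. That array also had the highest array median (4.22) and the lowest positive controls (9.78), and their part in this contrast was not tested.

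Genes of the receptors and of the Jak-Stat relay differed little. All 9 measured were above the background, 0 passed (limma), 4 had an unadjusted p under 0.05 (3 by the t-test of the methods), and their median difference was 0.01. Among those 4, Stat2 and Irf9 were lower on d7, while Ifngr1 and Jak1 were higher. Ifnar1 differed by 0.04, Ifnar2 by -0.07 and Ifngr1, a chain of the interferon gamma receptor, by 0.26. Jak1 differed by 0.28. In Ifngr1 and Jak1 every d7 array was above every d3 array. Among the parts of the complex that binds the response element, Stat2 was at 14.16, 13.93 and 13.91 on d3 and at 13.56, 13.52, 13.55 and 13.65 on d7, without overlap (-0.43, adjusted p = 0.192), and Irf9 differed by -0.29 (adjusted p = 0.609).

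The interferon regulatory factors drive both interferon genes and effectors. Of the 6 measured, 5 had a lower mean on d7, 0 passed (limma) and 1 had an unadjusted p under 0.05, also by the t-test. Irf7, itself induced by interferon, differed most, at 14.24, 13.92 and 14.18 on d3 and 13.43, 13.46, 13.71 and 13.50 on d7 (-0.59, adjusted p = 0.216). Its days did not overlap. Irf5 differed by -0.20 and Irf8, which macrophages need for their development, by 0.09.

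Of 13 sensors of nucleic acids and their adaptors, 10 had a lower mean on d7, 0 passed (limma), 9 had an unadjusted p under 0.05 (8 by the t-test) and the median difference was -0.45. Zbp1, a sensor of Z-form nucleic acids, was at 14.25, 13.72 and 13.88 on d3 and at 12.87, 12.82, 13.04 and 12.66 on d7 (-1.10, adjusted p = 0.124). Tlr9, the endosomal receptor for unmethylated DNA, was at 12.37, 12.78 and 11.81 on d3 and at 10.80, 10.08, 10.997 and 11.03 on d7 (-1.59, adjusted p = 0.303). In both, the days were separate. Tlr7 differed by -0.55 and the adaptor Myd88 by -0.47. Zbp1 and Dhx58 fell in the fit on probe sets above the background, against 1.00% of the probe sets in that fit. Of the 9 with an unadjusted p under 0.05, 2 were higher on d7, Sting1 (0.49) and Mavs (0.23). In both, every d7 array was above every d3 array. Of the 5 genes that restrain the signal, 0 passed and 0 had an unadjusted p under 0.05 by either test, and Pias1 (-0.09), Ptpn2 (-0.05) and Trim24 (0.03) differed by 0.1 log2 units or less.

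Outside the 10 effectors, 41 other type I interferon-induced genes were measured. Of these, 39 had a lower mean on d7, 4 fell, 0 rose, and the median difference was -0.44, against the 0.0531% of all probe sets that passed with a lower level on d7. Phf11b, a PHD finger gene with the widest difference of the list, was at 15.06, 14.67 and 14.94 on d3 and at 13.20, 13.19, 13.35 and 13.22 on d7, and fell by 1.65 on the log2 scale (adjusted p = 0.0162, limma). Sp100 and Sp110, both nuclear body proteins, fell by 0.72 (adjusted p = 0.0298) and 0.61 (adjusted p = 0.0409). Trim30a, a ubiquitin ligase of the Trim family, fell by 0.47 (adjusted p = 0.0294). The 4 genes showed no overlap of days. In the fit on probe sets above the background 10 of the 41 fell, against 1.00% of the probe sets in that fit. With 1 array left out of the fit over all probe sets, 0 to 2 of the 41 passed (1 without d3 replicate 3), and the adjusted p of Phf11b, Trim30a, Sp100 and Sp110 reached 0.107, 0.133, 0.147 and 0.176. The list held 2 genes with a higher mean on d7, Bst2 (0.03) and Lgals3bp (0.20).

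Most genes more closely tied to interferon gamma had a lower mean on d7. Of the 14 measured, 11 had a lower mean on d7, 0 passed (limma) and the median difference was -0.27. An unadjusted p under 0.05 was found in 7 (6 by the t-test of the methods), all 7 with a lower mean on d7. The GTPase Igtp differed by -0.37, the peptide transporter Tap1 by -0.26 and the proteasome subunit Psmb8 by -0.06. Irgm1 differed by -0.65 (adjusted p = 0.0700, limma), with no overlap of days. It alone of the list fell in the fit on probe sets above the background, against 1.00% of the probe sets in that fit. The chemokine Cxcl10, which type I interferon also induces, was at 7.22, 7.90 and 7.58 on d3 and at 6.53, 6.79, 6.42 and 6.42 on d7 (-1.03, adjusted p = 0.222). Like Ifnb1, and unlike Ifit1, Ifit3 and Isg15, it was highest on d3 replicate 3, the array with the lowest positive controls. Nos2, the inducible nitric oxide synthase, had the highest difference of the list in the other direction, 0.98 (adjusted p = 0.662), at 8.21, 7.91 and 7.73 on d3 and 8.21, 10.41, 9.02 and 8.09 on d7. Its days overlapped, and d7 replicate 6 was its highest array.

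**Figure D5:**
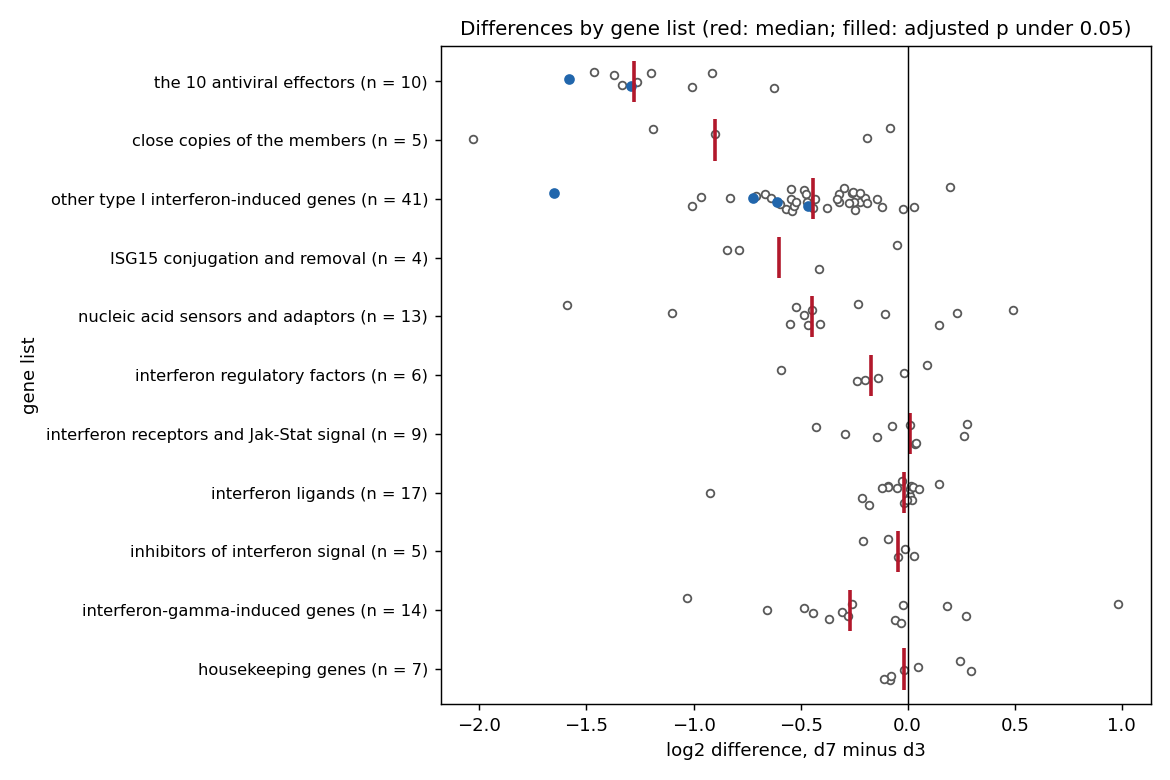
Log2 difference, d7 minus d3, of each gene of the interferon lists (circles, filled where the adjusted p over all probe sets was under 0.05) with the median of each list in red and its number of genes in parentheses. The 10 effectors have a median of -1.28, the other type I interferon-induced genes of -0.44, and the receptors and Jak-Stat genes and the housekeeping genes lie around 0.

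The cells carried the markers they were sorted by on both days: the macrophage genes Adgre1 (F4/80) and Itgam (CD11b) differed by 0.01 and -0.03. Of 11 macrophage markers, all above the background, 7 had a higher and 4 a lower mean on d7. Mrc1, the mannose receptor, rose by 1.42 on the log2 scale (adjusted p = 0.0263, limma, and up to 0.121 with 1 array left out). Of all 65956 probe sets, 42 passed with a higher level on d7. In the fit on the 19774 probe sets above the background, Mrc1 rose and Fcgr1 (-0.37) fell, while 176 probe sets rose and 198 fell. Of 11 monocyte markers, 11 had a lower mean on d7 and 1, Cd300e, fell by 2.46 on the log2 scale (adjusted p = 0.0162, limma, and up to 0.107 with 1 array left out). Over all 65956 probe sets, 35505 had a lower mean on d7 and 0.0531% passed with a lower level. In the fit on probe sets above the background 5 of the 11 fell (Ly6c2, Ccr2, Plac8, Spn and Cd300e), against 1.00% of the probe sets in that fit. The mean level of the monocyte list was 9.68 to 10.19 on the d3 arrays and 8.997 to 9.16 on the d7 arrays, Ly6c2 differed by -2.02 (adjusted p = 0.0865), and Ace was at background. This difference in monocyte markers ran in the same direction as that of the effectors, and its part in their lower level on d7 was not tested.

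Of 12 neutrophil markers, Retnlg fell by 4.85 on the log2 scale (adjusted p = 0.0432, and up to 0.191 with 1 array left out), while Ly6g, Camp, Ltf, Ngp, Mpo and Elane were at or under the background. Csf3r (-0.35), Mmp8 (-1.10), S100a8 (0.13), S100a9 (0.14) and Cxcr2 (0.14) were above the background and did not pass. Retnlg and Mmp8 fell in the fit on probe sets above the background, against 1.00% of the probe sets in that fit. On d7 replicate 6, the array lowest in 6 of the effectors, S100a8 (12.06), S100a9 (10.95) and Cxcr2 (8.31) were higher than on any other array. On the other d7 arrays S100a8 was at 9.76 to 10.62, S100a9 at 8.68 to 9.33 and Cxcr2 at 7.23 to 7.45. The mean level of the list was 7.23 to 7.41 on d3 and 6.64 to 7.24 on d7, and its part in the result was not tested. Of 8 markers of plasmacytoid dendritic cells, the specialised producers of type I interferon, 0 passed and 0 had an unadjusted p under 0.05, and Tcf4 and Cox6a2 alone were above the background. Siglech, which defines these cells, was at 4.87 to 5.03. All 8 T and NK cell markers and all 7 fibroblast markers measured were at or under the background, and of the 5 B cell markers Ighm (-1.39, adjusted p = 0.292) and Cd79b (0.09) were above it. The 7 housekeeping genes had a median difference of -0.02, with a range of -0.11 to 0.30, and 0 passed (limma). An unadjusted p under 0.05 was found in 2 of them, B2m (-0.08) and Actb (-0.08), against 7.66% of all probe sets. In both, every d7 array was below every d3 array.

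The genes whose pattern over the 7 arrays was most like the mean of the 10 effectors were Gm4955, Rnf34, Phf11a, Dtx2, Phf11b, Slc16a10, Il18, BC147527, Sp100 and Tor1aip1, with Pearson correlations of 0.98 to 0.99 among 11601 candidate genes. In the mean of the 10 effectors all d3 arrays (10.87 to 11.30) stood above all d7 arrays (9.73 to 10.03), a gap that this likeness shares. After the mean of each day was removed, the closest were Gm6098, Chchd4, Gm15636, Ifit3b, Gm9013, Gpank1, 1700016K19Rik, Plcb2, Ripor2 and Sdad1, with correlations of 0.96 to 0.98 that rest on 7 arrays and share their normalization.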

How the data were processed

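RNA of d3 and d7 wound macrophages was hybridized by the authors to Affymetrix Mouse Transcriptome Arrays. The submitters' notes name Affymetrix Expression Console and the methods name further programs, and the normalization is not given in the sources used here. The deposited table held log2 values made by the authors (1.82 to 19.93) for 72688 probe sets, many with tied values: 3754 probe sets tested were constant and 12129 had 7 different values. After 6732 array controls were left out, 65956 were tested, of which 30638 had a single gene symbol, 2176 several and 33142 none. The number of arrays limits the precision.

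The days were compared in R 4.3.3 by the moderated test of limma 3.58.1, fitted without covariates to all 65956 probe sets (two-sided, Benjamini-Hochberg adjustment, threshold 0.05). Differences are d7 minus d3, folds are powers of 2 of them, and errors are limma's SE. The test was checked on simulated data. Tables and motif searches used Python 3.11.15 and pandas 2.3.3. The members and gene lists were chosen with earlier results of these data known. The text names all 10 members, every list gene that passed (otherwise up to 3 with the highest mean above background) and the 10 most alike genes in each of 2 rankings. Ifnb1, Ifnar1, Irf9, Jak1, Aen, Ly6c2, Cxcl10, Adgre1, Itgam, Siglech, Tlr9, Uba7, Dhx58, Bst2, Lgals3bp, Ace, Ly6g, Camp, Ltf, Ngp, Mpo, Elane, Csf3r, Mmp8, S100a8, S100a9, Cxcr2, Nos2, Ccr2, Plac8, Spn, Sting1, Mavs, Fcgr1 and Irgm1 were named after their values were seen. Alternatives covered the moderation, the t-test of the methods, 2 normalizations, filters on low and tied values, 1 probe set per gene, array weights, a stricter threshold and leaving out each array.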

Additional observations from a re-analysis of the deposited data

Results flagged for a closer look

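Among 91 genes looked at, 12 had 1 d7 array far from the other 3, and 0 of them were among the 10 effectors. Chance alone flags about 1 group in 20 where values follow a normal distribution without ties. Many values here are tied, so the 12 cannot be read against that share. The measure is the gap to the nearest other array over the whole range of the group, which had to exceed Dixon's critical value for 4 arrays. Ifnar1 had a ratio of 1, with replicate 8 at 12.32 and the other arrays at 12.43. Ifnar2 (ratio 1) was at 14.10 on replicate 7 and 14.15 on the others, Pias1 (ratio 1) at 12.22 on replicate 7 and 12.36 on the others, and Trim25 (ratio 1) at 13.14 on replicate 8 and 13.24 on the others. Irf8 (ratio 1) was higher on replicate 6, at 10.98 against 10.85, as was Trim24 (ratio 1), at 7.25 against 7.19. Cd79b (ratio 1) was higher on replicate 8, at 6.56 against 6.35. Hprt (ratio 0.958) was also highest on replicate 8, at 13.37 against 13.12 to 13.13. Bst2 (ratio 0.850) was highest on replicate 7, at 17.13 against 16.94 to 16.97. Plac8 (ratio 0.901), a monocyte marker, was also highest on replicate 7, at 11.69 against 11.498 to 11.52. The neutrophil genes Ngp (ratio 1, 3.63 against 3.57) and Elane (ratio 1, 3.74 against 3.65), both under the array background, were highest on replicate 6. In the 9 genes with a ratio of 1, the other 3 arrays held the same value.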

How the results depend on the processing

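All 10 effectors kept a lower mean on d7 with quantile normalization, median centring, array weights and each array left out, and the tests and filters left their differences as they were. Their median difference was -1.23 after quantile normalization, -1.26 after median centring of the arrays and -1.40 to -1.20 with 1 array left out. The number of effectors that passed, 2, depended on the setting. It was 1 with robust moderation, 4 with quantile normalization, 4 with median centring, 7 on probe sets above the background, 9 on probe sets with 7 different values (chosen after seeing the data), 0 by the methods' t-test with Benjamini-Hochberg (10 unadjusted), 0 at an adjusted p under 0.01 (10 with an unadjusted p under 0.05) and 0 to 0 with 1 array left out. With 1 probe set per gene 3 passed. With array weights 2 passed, Rsad2 and Cmpk2, so Usp18 did not. Over all probe sets, 77 passed (42 higher and 35 lower on d7), against 169 with quantile normalization, 223 with median centring, 374 on probe sets above the background, 824 on those with 7 different values, 13 by the methods' t-test with Benjamini-Hochberg (3652 unadjusted), 6 at an adjusted p under 0.01 and 1 to 212 with 1 array left out. On probe sets with 7 different values 355 were higher and 469 lower, and without d3 replicate 1 69 were higher and 143 lower. Fewer probe sets tested ease the adjustment. Beyond that, the cause was not tested. Each effector has 1 probe set, so a mean over the probe sets of a gene was not run. No paired analysis was possible because the d3 and d7 arrays share no replicate number.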
